A study of Rattus norvegicus with 6 samples.

Results

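The genes described here encode the matrix metalloproteases (MMPs), the ADAM, ADAMTS and ADAMTS-like proteins and the tissue inhibitors of metalloproteases (TIMPs) of the rat dorsal root ganglion. They were taken by symbol (Mmp, Adam, Adamts, Adamtsl or Timp followed by a number) among genes with a value in at least 3 of the 6 deposited files, which gave 44 members of 14346 genes listed in any file. Sham-operated rats gave 3 libraries and rats with partial sciatic nerve ligation (pSNL) gave another 3, all from ganglia taken on day 7. pSNL is an injury in which part of the sciatic nerve is tied off while other axons in it are spared. The sources used here give no strain, sex or age, and do not say which ganglia were taken or whether ganglia were pooled. Whether the libraries came from separate animals is not stated either, so the p-values rest on differences among libraries that may be technical. Another 5 matching genes (Mmp7, Mmp8, Mmp21, Adam2 and Adam7) were listed in 1 or 2 files, with at most 2 counts in any library.

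MMPs are zinc-dependent proteases that cut collagens and other proteins of the extracellular matrix, and are held inactive until their propeptide is removed. ADAMs sit in the membrane and shed the outer parts of receptors, ligands and adhesion molecules, while the secreted ADAMTS proteases trim procollagens and cut proteoglycans. TIMPs bind the active site of these enzymes and block it, so the balance of proteases and inhibitors sets how fast matrix is turned over. After nerve injury this system is known for its part in the breakdown of the blood-nerve barrier, in macrophage entry and in the regrowth of axons.

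The libraries held 4310643 to 4416121 estimated counts. In CPM (read counts scaled to library sizes adjusted by TMM, edgeR's scaling between libraries) 1 count equals 0.227 to 0.231. Sensory neuron markers were abundant in all libraries, with a summed level of 23886 to 28523 CPM over 7 genes. The injury gene Atf3 ranged from 11.5 to 22.8 CPM in sham and from 97.6 to 294 CPM after injury, and was lowest of the injured libraries in pSNL replicate 1. Sham replicate 3 stood apart: 6 central glia markers summed to 1720 CPM there and to 24.3 to 56.9 CPM in the others. Skeletal muscle markers were high in both replicate 3 libraries, at 519 (sham) and 1005 CPM (pSNL) against 10.1 to 19.3 CPM in the rest.

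Timp1 was the member that rose in pSNL, 1.92-fold, and most other tested members had higher values in pSNL without passing the threshold. Of the 44 members 36 had enough counts to be tested, and 1 passed (adjusted p of 0.05, edgeR's quasi-likelihood test with Benjamini-Hochberg adjustment over 11091 genes). Over all tested genes 51, or 0.460%, passed. DESeq2 called 7 of the 36, Timp1, Mmp2, Mmp13, Mmp16, Mmp19, Adamts1 and Adamts2, where it called 2.89% of all genes. At an unadjusted p under 0.05 in edgeR there were 15 members higher and 1 lower in pSNL, while the shares over all tested genes were 9.41% higher and 6.07% lower.

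The tested members had a median log2 fold change of 0.46 and 31 of them a positive one, beside a median of -0.0024 and 5480 of 11091 genes with a positive one over all tested genes. Without sham replicate 3 the members' median was 0.38. Over all 44 members, 21 had every pSNL library above every sham library and 2 had every pSNL library below (Mmp13 and Adam32). Some of these rest on few counts. Mmp12 was listed only in the 3 pSNL files, which fixed its place among the 21. Mmp3 met the rule of at least 3 files only through its pSNL libraries, and Adam32 only through its sham libraries. Mmp9 had 4 counts in both sham replicate 3 and pSNL replicate 2. Among the tested members these were 18 and 1, and the 1 (Mmp13) had enough counts to be tested through its sham libraries only. The same held for 11.1% (higher) and 10.4% (lower) of all tested genes. The count of called members turned on single libraries. In edgeR it was 0 without sham replicate 1, sham replicate 2 or pSNL replicate 2, where 0.185%, 0.0441% and 0.0800% of all genes passed. In these fits 16 of 37, 19 of 37 and 14 of 36 tested members had an unadjusted p under 0.05 in either direction. The share of all genes under that p is not given for these fits, so these counts have no background here. The count of called members was 1 without sham replicate 3 (Mmp13, with 0.293% of all genes) and 2 without pSNL replicate 3 (Timp1 and Adam23, with 0.852%). It was 7 without pSNL replicate 1, the injured library with the lowest Atf3, with 1.92% of all genes (Timp1, Mmp2, Mmp3, Mmp16, Mmp19, Adamts1 and Adamts2). Of these, Mmp3 could be tested only through its pSNL libraries.

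**Figure D1:**
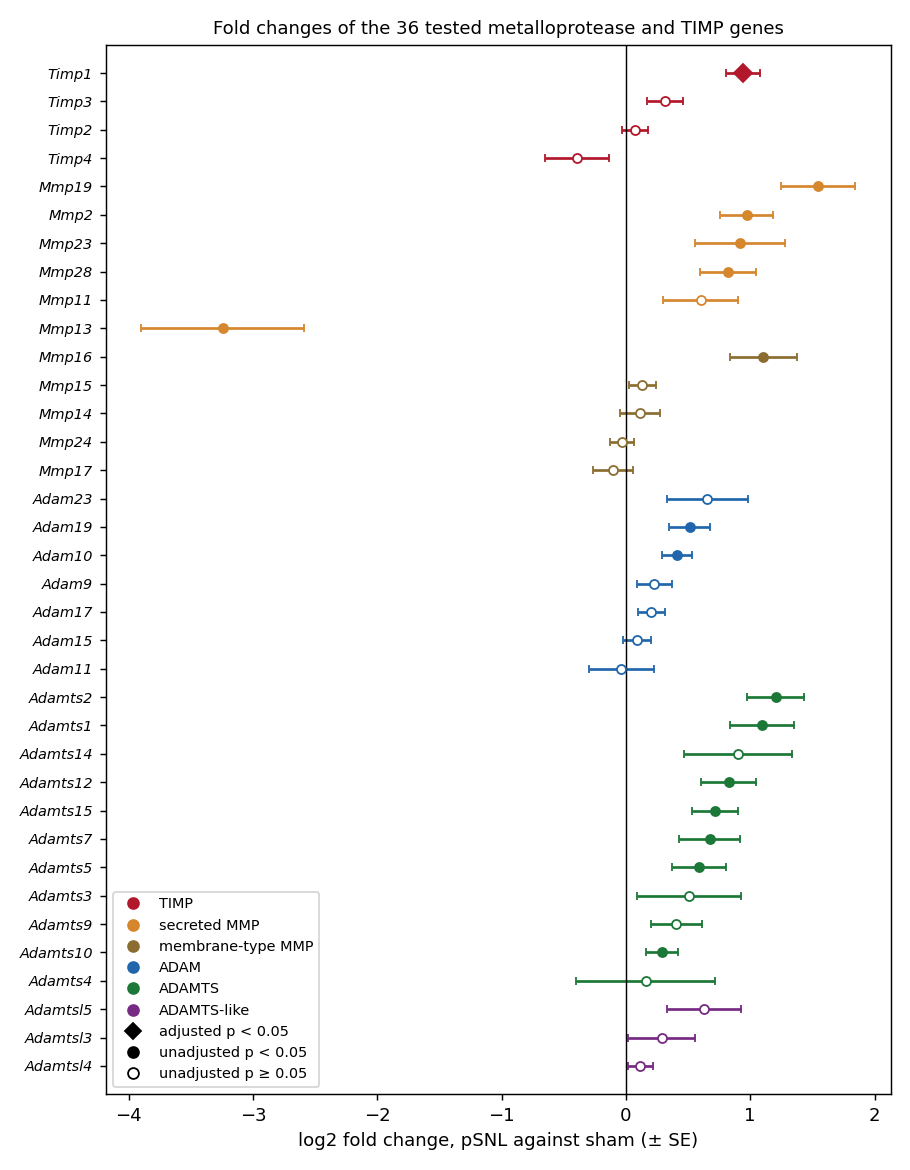
Log2 fold change of pSNL against sham for each of the 36 tested members, with the standard error as the bar, coloured by family. Timp1 at 0.94 is the one that passed the adjusted threshold, Mmp13 lies far to the left at -3.25, and all 11 tested ADAMTS genes lie to the right of 0.

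Markers of several cell types differed between the groups as well. All 6 fibroblast markers were higher in every pSNL library than in every sham library, with sums of 1679 to 3728 CPM in sham and 4109 to 6858 CPM in pSNL. The 9 macrophage markers summed to 165 to 216 CPM in sham and 289 to 481 CPM in pSNL. Lyz2 was the largest part of each sum (85.9 to 112 and 166 to 282 CPM), so the gap between the sums rests on it to a large extent. Of the 9 markers 3 did not overlap (Lyz2, Cd68 and C1qb), and Cd163 was not higher in pSNL (1.38 to 5.06 and 1.36 to 3.67 CPM). Sums of the 5 endothelial markers overlapped (144 to 203 and 141 to 164 CPM), as did those of 4 neutrophil markers (3.21 to 9.19 and 3.67 to 12.9 CPM), among which Mpo was at 0 in 4 libraries. Of the 7 sensory neuron markers 3 were lower in every injured library (Rbfox3, Snap25 and Nefl, with Nefl at 11073 to 13480 CPM in sham against 8793 to 9998 CPM in pSNL) and 1 was higher (Tubb3). Of the 4 satellite glia markers Fabp7 was lower in every injured library (33.2 to 51.7 against 10.8 to 25.0 CPM) and Cdh19 was higher. Over all tested genes 11.1% were higher and 10.4% lower in every injured library. A single marker without overlap in so short a list therefore says little. None of these marker genes passed the adjusted threshold, and none of the fibroblast and macrophage markers was at 0 in any library. In such bulk tissue, fewer cells of a type and less RNA per cell cannot be told apart, and the part of cell numbers in the values below was not tested.

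The inhibitors were led by Timp1, a secreted TIMP known to be induced in injured and inflamed tissue. Timp1 was at 42.9, 43.4 and 35.4 CPM in sham replicates 1 to 3 and at 63.8, 82.8 and 87.4 CPM in pSNL replicates 1 to 3. Every injured library lay above every sham library. Timp1 rose from 40.5 ± 4.47 to 78.0 ± 12.5 CPM (SD, n = 3 each), with a log2 fold change of 0.94 and a standard error of 0.14 (edgeR adjusted p = 0.0226). Later log2 fold changes are also given ± SE. The call was lost without any one of sham replicates 1, 2 and 3 or pSNL replicate 2, with adjusted p = 0.0690, 0.130, 0.0521 and 0.108 and a log2 fold change that stayed between 0.85 and 0.99, and over all alternatives adjusted p was 4.99e-05 to 0.130.

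The other 3 inhibitors did not pass. Timp2, which also helps to activate Mmp2 at the cell surface, was at 479, 450 and 387 CPM in sham and 417, 512 and 455 CPM in pSNL, with overlapping groups (log2 fold change 0.07 ± 0.11, edgeR adjusted p = 0.796). Its fold change was slightly negative without sham replicate 3 or pSNL replicate 2. Timp3, which binds to the matrix and also blocks ADAM proteases, was at 172, 178 and 132 CPM in sham and 195, 233 and 170 CPM in pSNL. These groups overlapped because pSNL replicate 3 lay below sham replicates 1 and 2 (0.31 ± 0.14, adjusted p = 0.343). Timp4, the least abundant inhibitor per length, was at 14.0, 10.1 and 17.2 CPM in sham and 9.08, 13.4 and 8.94 CPM in pSNL (-0.39 ± 0.26, adjusted p = 0.502). It had the one negative fold change of the family.

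**Figure D2:**
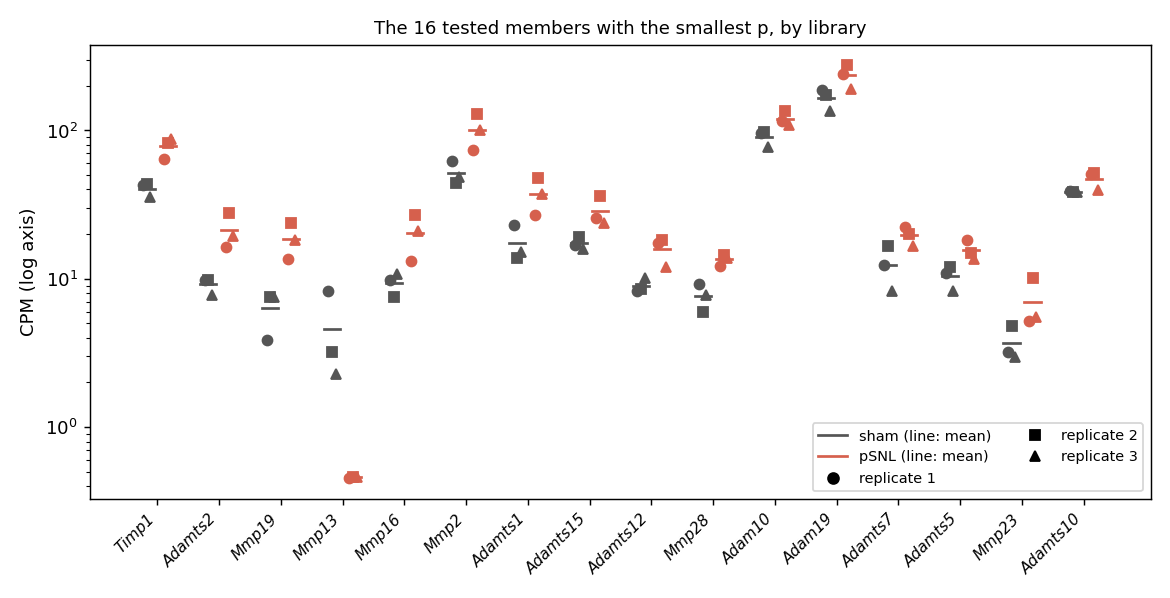
CPM of the 16 tested members with the smallest p in each library, on a log axis, with sham in grey, pSNL in red, 1 symbol shape for each replicate number and the group mean as a line. The groups do not overlap for any of the 16, and Mmp13 is the one in which the pSNL libraries lie below the sham libraries.

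Of the 9 MMPs grouped as secreted by symbol alone, Mmp23 among them, 6 were tested. Of these, 5 had a positive and 1 a negative fold change, and none passed in edgeR. At an unadjusted p under 0.05 there were 4 higher and 1 lower (Mmp13), beside 9.41% and 6.07% of all tested genes. Mmp13 had enough counts to be tested through its sham libraries only. DESeq2 called 3 (Mmp2, Mmp13 and Mmp19), beside 2.89% of all genes. Mmp19, a widely expressed basement membrane protease, had the largest positive fold change of the tested members. Mmp19 was at 3.90, 7.57 and 7.58 CPM in sham and 13.6, 23.8 and 18.3 CPM in pSNL. All injured libraries lay above all sham libraries, with a fitted 2.92-fold difference (log2 fold change 1.55 ± 0.30, edgeR adjusted p = 0.0576, and 0.0022 to 0.247 over the alternatives).

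Mmp2 (gelatinase A), which cuts denatured collagen and collagen IV of basement membranes, was the most abundant secreted MMP per length. Mmp2 was at 61.9, 44.5 and 48.5 CPM in sham and 74.2, 129 and 101 CPM in pSNL, again without overlap. The log2 fold change was 0.97 ± 0.21 (edgeR adjusted p = 0.0967) and 0.92 without sham replicate 3. DESeq2 called it (adjusted p = 0.000475, where the alternatives spanned 0.000475 to 0.310). Mmp28 (epilysin) was at 9.17, 5.97 and 7.81 CPM in sham and 12.3, 14.6 and 13.8 CPM in pSNL (0.82 ± 0.23, edgeR adjusted p = 0.128). Mmp23 was at 3.21, 4.82 and 2.99 CPM in sham and 5.22, 10.2 and 5.504 CPM in pSNL (0.92 ± 0.36, adjusted p = 0.268). Both were higher in each injured library, by a small margin for Mmp23. Mmp11 (stromelysin 3) was at 4.51 ± 1.04 and 6.87 ± 1.38 CPM (SD, n = 3 each; adjusted p = 0.380).

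Mmp13, Mmp12 and Mmp3 lie in a run of MMP genes on rat chromosome 8, and their counts differed between groups in opposite directions. In the RefSeq gene table of GRCr8 the order is Mmp13, Mmp12, Mmp1b and Mmp3, and then Mmp1, Mmp10, Mmp8, Mmp27, Mmp20 and Mmp7. Mmp13 is collagenase 3, which cuts fibrillar collagens, Mmp12 is the elastase of macrophages, and Mmp3 (stromelysin 1) cuts many matrix proteins and activates other MMPs. Of the other 7 genes of the run, Mmp7 and Mmp8 had at most 2 counts in a library, and Mmp1b, Mmp1, Mmp10, Mmp27 and Mmp20 were listed in none of the files used here.

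The starts of these 3 genes share 2 short sequence elements, shown because the genes are neighbours with unlike values. Each line gives the 120 bases that end 21 bases before the RefSeq transcription start (GRCr8, plus strand, 5′ to 3′), with the AP-1 heptamer (TGAGTCA or TGACTCA, which are reverse complements of each other) and the TATA box letters TATAAA in capitals.
Mmp13 (chr8:12782689-12782808): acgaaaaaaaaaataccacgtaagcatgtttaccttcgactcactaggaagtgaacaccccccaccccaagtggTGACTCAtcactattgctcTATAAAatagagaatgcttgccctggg
Mmp12 (chr8:12866512-12866631): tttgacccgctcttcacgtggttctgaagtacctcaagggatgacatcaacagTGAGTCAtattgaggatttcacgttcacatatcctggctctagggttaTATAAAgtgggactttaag
Mmp3 (chr8:12925141-12925260): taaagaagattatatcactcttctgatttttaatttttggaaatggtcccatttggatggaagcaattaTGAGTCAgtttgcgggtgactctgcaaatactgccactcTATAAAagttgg

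The AP-1 letters begin 66, 87 and 71 bases before the start of Mmp13, Mmp12 and Mmp3, and TATAAA begins 47, 39 and 32 bases before it. Windows of 250 bases before the start were given for 31 of the 44 members. The AP-1 heptamer was found in 4 of them (these 3 and Adam19) and TATAAA on the gene's strand in 4 (these 3 and Adamts1), with both in the 3 shown. Over all 33469 RefSeq windows of that length, 4.05% held the heptamer, 8.06% held TATAAA and 0.4% held both. TATAAA was searched for after the sequences had been seen. Neither motif was found in the Timp1 window. A match of letters is a description of the window and does not show that a factor binds there.

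Mmp13 had 36, 14 and 10 counts in sham replicates 1 to 3 and 2 counts in each pSNL library. All injured libraries were below all sham libraries, and sham replicate 1 was the highest. With 2 counts in each pSNL library, Mmp13 could be tested only by being higher in sham. In CPM it was at 4.59 ± 3.21 in sham and 0.46 ± 0.0042 in pSNL (SD, n = 3 each), a log2 fold change of -3.25 ± 0.65 (edgeR adjusted p = 0.0639). The summed counts were 60 and 6, so sham was 10.01 times as high (95% exact counting interval 4.34 to 28.4, which covers counting error only). Without sham replicate 1 it was 6.01 times as high (2.39 to 18.0), and without sham replicate 3 it was 12.5 times as high and passed in edgeR (adjusted p = 0.0450, where the alternatives spanned 0.0120 to 0.248). DESeq2 and the edgeR fit without a filter on low counts also called it (adjusted p = 0.0120 and 0.0373).

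Mmp3 and Mmp12 had too few counts for the test. Mmp3 had 0, 0 and 1 counts in sham and 5, 15 and 14 counts in pSNL, a ratio of 33.9 (95% exact counting interval 5.70 to 1380). Mmp3 met the rule of at least 3 files only through its pSNL libraries. The lone sham count came from sham replicate 3. Without that library, taking 3 counts over the remaining sham libraries as the floor gave a ratio of 7.55. That value leaves out the counting error of the pSNL counts and is not a lower limit. Without sham replicate 1 or 2 the ratio of summed counts was 22.6. Fitted without a filter on low counts, where 0.621% of all genes passed, Mmp3 passed in edgeR (adjusted p = 0.0494, and 0.0238 to 0.246 over the alternatives that could test it). Where a fit with 1 library left out could test Mmp3, this was through its pSNL libraries only.

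Mmp12 had 0 counts in each sham library and 2, 7 and 5 counts in pSNL. It was listed only in the 3 pSNL files, so the rule of at least 3 files fixed its lack of overlap. Taking 3 counts over the sham libraries as the floor gave a ratio of pSNL to sham of 4.66. Without any one of the sham libraries the ratio was 3.10 to 3.11, with fewer sham reads behind the same floor. These ratios leave out the counting error of the pSNL counts and are not lower limits. In the edgeR fit without a filter Mmp12 did not pass (adjusted p = 0.126). Mmp9 (gelatinase B), a protease of neutrophils and macrophages often studied in nerve injury, had 1, 1 and 4 counts in sham and 5, 4 and 6 counts in pSNL. The summed counts gave a ratio of 2.50 (0.915 to 7.85), an interval that includes 1, and 4.996 (1.16 to 45.02) without sham replicate 3. Both intervals cover counting error only and leave out differences among libraries, so neither tests a difference between the groups. At this depth, with all 6 libraries, Mmp9 did not pass in the edgeR fit without a filter (adjusted p = 0.523).

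**Figure D3:**
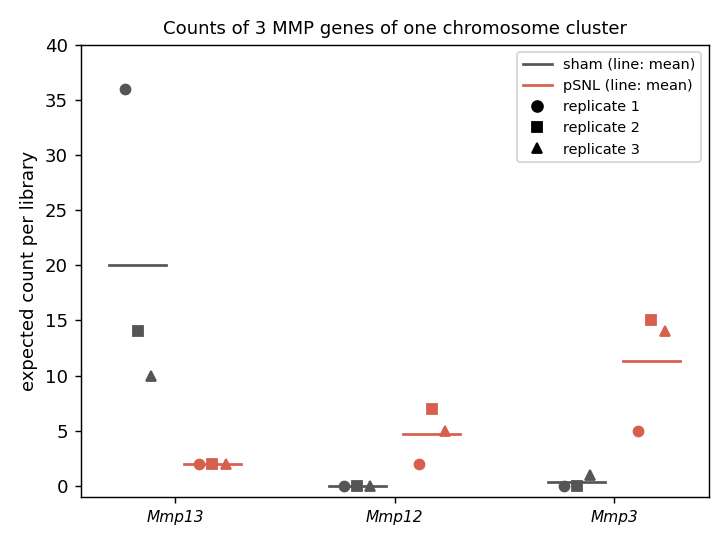
Expected counts of Mmp13, Mmp12 and Mmp3 in each library, with sham in grey, pSNL in red, 1 symbol shape for each replicate number and the group mean as a line. Mmp13 has 10 to 36 counts in sham and 2 in each pSNL library, whereas Mmp12 and Mmp3 have 0 or 1 count in sham and 2 to 15 in pSNL.

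Membrane-type MMPs are anchored at the cell surface, and 4 of the 5 measured here overlapped between groups. None passed in edgeR, and Mmp16 alone had an unadjusted p under 0.05 and was called by DESeq2. Over all tested genes 11.1% (higher) and 10.4% (lower) did not overlap between groups. An unadjusted p under 0.05 was found for 9.41% (higher) and 6.07% (lower) in edgeR, and DESeq2 called 2.89% of all genes. Mmp15, the most abundant of them, was at 393, 400 and 323 CPM in sham and 362, 434 and 425 CPM in pSNL (log2 fold change 0.13 ± 0.11, edgeR adjusted p = 0.601). Mmp14, the main activator of Mmp2, was at 141, 157 and 98.8 CPM in sham and 130, 144 and 155 CPM in pSNL (0.11 ± 0.16, adjusted p = 0.789), and -0.063 without sham replicate 3. Both overlapped between the groups, as did Mmp24, a mainly neuronal member (95.7 ± 4.93 and 93.5 ± 6.97 CPM), and Mmp17 (21.3 ± 2.22 and 19.8 ± 2.58 CPM, SD, n = 3 each). Mmp16 was at 9.86, 7.57 and 10.8 CPM in sham and 13.2, 26.8 and 20.9 CPM in pSNL. It did not overlap, with a log2 fold change of 1.11 ± 0.27 (adjusted p = 0.0967), and passed with DESeq2 and, in edgeR, without pSNL replicate 1 (adjusted p = 0.0409 and 0.0220, where the alternatives spanned 0.0220 to 0.364).

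None of the 7 tested ADAMs passed in edgeR or DESeq2, and 2 had an unadjusted p under 0.05 in edgeR, Adam10 and Adam19, both higher in pSNL. Over all tested genes 9.41% had such a p with higher values in pSNL and 6.07% with lower values. DESeq2 called 2.89% of all genes. Adam10, which sheds Notch and the amyloid precursor protein, was at 95.8, 97.5 and 77.9 CPM in sham and 116, 136 and 108 CPM in pSNL. Adam19, which can cut neuregulins, was at 188, 173 and 135 CPM in sham and 242, 275 and 189 CPM in pSNL. Neither overlapped between groups, but for Adam19 pSNL replicate 3 lay barely above sham replicate 1. Their log2 fold changes were 0.41 ± 0.12 and 0.51 ± 0.16 (edgeR adjusted p = 0.147 and 0.192). The counts of Adam19 were not whole in 1 library and those of Mmp16 were whole in none, so reads were shared with other genes and both are uncertain to that extent.

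Adam17, the protease that releases tumour necrosis factor, averaged 59.3 ± 6.30 and 68.3 ± 3.79 CPM in the sham and pSNL libraries and overlapped (SD, n = 3 each; edgeR adjusted p = 0.399). Adam9 was at 93.7 ± 21.0 and 110 ± 0.699 CPM and overlapped too, because of a high value in sham replicate 2. Adam15, a widely expressed sheddase, was at 110.0, 109 and 113 CPM in sham and 98.1, 132 and 124 CPM in pSNL, so the injured libraries lay on both sides of the sham libraries (adjusted p = 0.749).

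Adam11 and Adam23, neuronal ADAMs without protease activity that act as adhesion or receptor proteins, varied widely among the injured libraries. Adam11 was at 154, 142 and 119 CPM in sham and 163, 159 and 83.7 CPM in pSNL. Adam23, a receptor for Lgi1, was at 67.4, 61.0 and 51.2 CPM in sham and 104, 126 and 52.5 CPM in pSNL. In both genes pSNL replicate 3, a library with high muscle markers, was far below the other injured libraries, and sham replicate 3 was the lowest of the sham libraries. Without pSNL replicate 3 Adam23 passed (log2 fold change 0.94, edgeR adjusted p = 0.0306, against 0.66 ± 0.33 and adjusted p = 0.412 with it, and up to 0.739 over the alternatives). The part of the muscle transcripts in this was not tested.

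The remaining 3 ADAMs, Adam4, Adam30 and Adam32, had at most 6.40 counts in any library and were not tested. Expected counts of Adam4 and Adam30 were not whole, so reads were shared with similar genes and their values are uncertain. Adam32 had 2, 4 and 2 counts in sham and 1, 0 and 0 counts in pSNL. Its groups did not overlap, though the lowest sham libraries had only 2 counts and the highest pSNL library 1. It met the rule of at least 3 files only through its sham libraries.

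All 11 tested ADAMTS proteases had a positive fold change, 7 had an unadjusted p under 0.05, and none passed in edgeR, where the smallest adjusted p was that of Adamts2. Over all tested genes 49.4% had a positive fold change and 9.41% an unadjusted p under 0.05 with higher values in pSNL. DESeq2 called 2, Adamts1 and Adamts2, beside 2.89% of all genes. The median log2 fold change of the 11 was 0.67, and 0.65 without sham replicate 3. In 8 of them every injured library lay above every sham library, as in 11.1% of all tested genes.

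Adamts2, Adamts3 and Adamts14 remove the N-terminal propeptide of fibrillar procollagens. Adamts2 was at 9.86, 9.87 and 7.81 CPM in sham and 16.3, 27.7 and 19.5 CPM in pSNL, a fitted 2.30-fold difference (log2 fold change 1.20 ± 0.23, edgeR adjusted p = 0.0576, and 0.0080 to 0.217 over the alternatives). The groups were well apart for Adamts2 and overlapped for its relatives. Adamts14 was at 2.52 ± 0.69 and 4.74 ± 2.12 CPM and Adamts3 at 2.14 ± 0.66 and 3.06 ± 0.98 CPM (SD, n = 3 each; adjusted p = 0.358 and 0.597).

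Adamts1, Adamts4, Adamts5, Adamts9 and Adamts15 cut the large proteoglycans aggrecan, versican or brevican. Adamts1 was at 23.2, 13.8 and 15.2 CPM in sham and 26.8, 47.6 and 37.2 CPM in pSNL, a log2 fold change of 1.10 ± 0.26 (edgeR adjusted p = 0.101). Adamts15 was at 16.96, 19.3 and 15.9 CPM in sham and 25.9, 36.3 and 23.6 CPM in pSNL (0.72 ± 0.19, adjusted p = 0.109). In both, pSNL replicate 2 was the highest library. Adamts5 was at 11.0, 11.9 and 8.27 CPM in sham and 18.4, 15.03 and 13.5 CPM in pSNL (0.59 ± 0.21, adjusted p = 0.230). Adamts9 was at 9.56 ± 1.09 and 12.7 ± 1.55 CPM (SD, n = 3 each; adjusted p = 0.383).

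Adamts4, which oligodendrocytes of the central nervous system also express, followed another pattern. Adamts4 was at 7.79, 9.87 and 29.4 CPM in sham and 14.98, 24.5 and 13.1 CPM in pSNL. Its highest library was sham replicate 3, in which the oligodendrocyte markers Mobp and Mog were at 519 and 116 CPM, against 1.59 to 3.21 and 1.14 to 3.90 CPM elsewhere. With that library the log2 fold change was 0.16 ± 0.56 (edgeR adjusted p = 0.926), and without it 0.98 with no overlap between the groups (adjusted p = 0.177, the lowest over the alternatives, which reached 0.976). The part of the central transcripts was not tested, and Adamts4 counts were not whole in 5 of the libraries.

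Adamts12 and Adamts7 are related proteases that cut cartilage oligomeric matrix protein. Adamts12 was at 8.25, 8.49 and 10.1 CPM in sham and 17.5, 18.3 and 11.9 CPM in pSNL (0.83 ± 0.22, edgeR adjusted p = 0.123). Adamts7 was at 12.4, 16.5 and 8.27 CPM in sham and 22.5, 20.1 and 16.7 CPM in pSNL (0.67 ± 0.24, adjusted p = 0.227), where pSNL replicate 3 lay just above sham replicate 2. Adamts10, which binds fibrillin and was the most abundant ADAMTS per length, was at 39.2, 38.3 and 38.4 CPM in sham and 50.9, 51.6 and 39.4 CPM in pSNL (0.29 ± 0.13, adjusted p = 0.314). The sham libraries of Adamts10 lay very close together, and its groups were barely apart. pSNL replicate 3 had 172 counts and sham replicate 1 had 171. Adamts18 and Adamts19 had at most 3 counts in a library and were not tested.

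The ADAMTS-like proteins lack the protease domain and bind to matrix fibrils. Adamtsl4, the most abundant, was at 78.6, 73.2 and 63.2 CPM in sham and 76.5, 79.5 and 77.1 CPM in pSNL (log2 fold change 0.12 ± 0.10, edgeR adjusted p = 0.627). Adamtsl5 was at 5.96, 4.13 and 3.68 CPM in sham and 6.36, 8.32 and 6.65 CPM in pSNL (0.63 ± 0.30, adjusted p = 0.348), higher in each injured library by a small margin. Adamtsl3 was at 8.87 ± 1.94 and 10.8 ± 2.66 CPM (SD, n = 3 each; adjusted p = 0.642). Neither edgeR nor DESeq2 called any of the 3, and in edgeR no unadjusted p was under 0.05.

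Levels between genes were compared as deposited FPKM, which is per length of the gene. The 4 most abundant members over the 6 libraries were Timp2 at 271 ± 24.9 FPKM, Timp3 at 101 ± 18.7, Mmp15 at 101 ± 9.93 and Timp1 at 82.3 ± 30.5 (SD over 6 libraries). Timp3 and Mmp15 did not differ beyond their spread, whereas Timp2 lay far above both. Mmp14, Adam11, Adam15, Adam9, Adam19, Adam10, Adam23, Mmp2, Mmp24, Adamtsl4, Adam17 and Adamts10 followed, between 55.8 and 10.4 FPKM, and 10 members had a mean under 1 FPKM. Inhibitors and membrane-bound members thus headed the list, and of the secreted MMPs and ADAMTS proteases only Mmp2 and Adamts10 were above 10 FPKM.

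Summed over its members, 3 of the 6 families had every injured library above every sham library. This held for 11.1% of single tested genes, and no share for sums of genes is given here. The secreted MMPs summed to 35.3, 28.4 and 30.9 FPKM in sham and 48.6, 77.0 and 59.8 FPKM in pSNL, of which Mmp2 gave 53.0% in sham and 53.1% in pSNL. The ADAMTS proteases summed to 31.8, 31.3 and 34.3 FPKM in sham and 48.6, 58.8 and 42.1 FPKM in pSNL. Both sums were highest in pSNL replicate 2. The TIMPs summed to 450, 434 and 372 FPKM in sham and 463, 563 and 491 FPKM in pSNL, with 63.1% of the sham sum from Timp2. Mean FPKM in sham and pSNL was 56.2 and 108 for Timp1, 264 and 279 for Timp2, 90.0 and 112 for Timp3, and 8.09 and 6.16 for Timp4. Of these genes only Timp1 did not overlap between groups, so the TIMP sum does not show a rise of the whole family. The sums of ADAMs (187 to 220 and 201 to 284 FPKM), of membrane-type MMPs (157 to 196 and 181 to 204 FPKM) and of ADAMTS-like proteins (19.6 to 25.5 and 25.4 to 28.4 FPKM) overlapped.

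**Figure D4:**
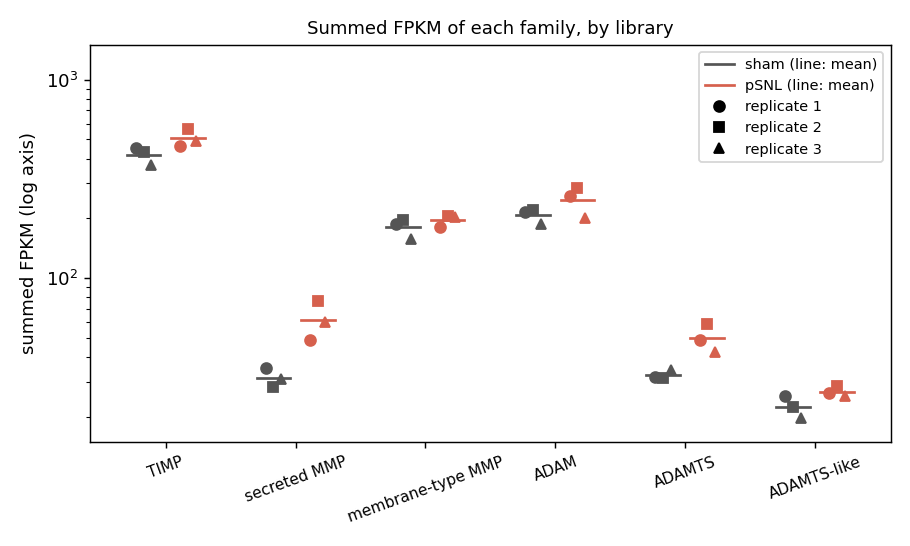
Summed FPKM of the members of each family in each library, on a log axis, with sham in grey, pSNL in red, 1 symbol shape for each replicate number and the group mean as a line. Secreted MMPs (28.4 to 35.3 against 48.6 to 77.0 FPKM) and ADAMTS proteases (31.3 to 34.3 against 42.1 to 58.8 FPKM) stand apart between groups, TIMPs do so narrowly, and the other 3 families overlap.

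Of a list of 29 regulators of these enzymes (activating proteases, other inhibitors and partner proteins), 23 were tested and none passed in edgeR. At an unadjusted p under 0.05 there were 7 higher and none lower, where 9.41% and 6.07% of all tested genes were, and the median log2 fold change was 0.12. DESeq2 called 3 higher (A2m, Pcolce and Plau), where it called 2.89% of all genes. A2m, the broad protease inhibitor alpha-2-macroglobulin, was at 38.5, 47.0 and 50.1 CPM in sham and 81.3, 118 and 75.2 CPM in pSNL (log2 fold change 1.02 ± 0.18, edgeR adjusted p = 0.0597). Pcolce, an enhancer of procollagen C-proteinase, was at 43.1, 27.1 and 24.4 CPM in sham and 56.3, 82.3 and 73.2 CPM in pSNL (1.16 ± 0.23, adjusted p = 0.0823). Plau, the urokinase that starts the plasmin cascade upstream of MMPs, was at 5.73, 6.20 and 7.35 CPM in sham and 9.76, 18.7 and 16.5 CPM in pSNL (1.22 ± 0.28, adjusted p = 0.0847). None of these groups overlapped, and the counts of Plau were not whole in 5 of the libraries. All 3 genes passed in edgeR without pSNL replicate 1 (adjusted p = 0.0480, 0.0483 and 0.0184, where the alternatives spanned 6.20e-05 to 0.216, 0.000105 to 0.285 and 0.0184 to 0.313). In that fit 1.92% of all genes passed, against 0.460% with all libraries.

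Fold changes of Reck, Bmp1, Plat and Furin were smaller. Reck, a membrane-bound MMP inhibitor, was at 51.6 ± 5.23 and 67.9 ± 8.29 CPM, and Bmp1, the procollagen C-proteinase itself, at 56.5 ± 4.29 and 72.8 ± 8.79 CPM (SD, n = 3 each; edgeR adjusted p = 0.166 and 0.167). Both were higher in each injured library. Plat, the tissue plasminogen activator and a gene of sensory neurons, was at 230 ± 36.6 and 239.8 ± 6.87 CPM (adjusted p = 0.836). Furin, which activates membrane-type MMPs and many ADAMs, was at 63.3 ± 4.58 and 67.0 ± 2.53 CPM (adjusted p = 0.730).

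Of 27 substrates and binding partners 24 were tested, none passed in edgeR, and at an unadjusted p under 0.05 there were 7 higher and 2 lower. The log2 fold changes of the 24 had a median of 0.089. The shares over all tested genes were 9.41% higher and 6.07% lower, so the lower count is near the background. DESeq2 called Cd44 higher and Bcan and Lgi3 lower, where it called 2.89% of all genes. Lgi3, a secreted ligand of ADAMs without protease activity, was at 498, 534 and 524 CPM in sham and 423, 301 and 352 CPM in pSNL (-0.53 ± 0.12, edgeR adjusted p = 0.0801). Its relative Lgi2 was at 3.21, 3.67 and 4.596 CPM in sham and 7.49, 17.6 and 6.65 CPM in pSNL (1.46 ± 0.41, adjusted p = 0.131). The groups of both genes were apart, in opposite directions, while Lgi1, the best studied partner of Adam23, was at 35.5 ± 5.90 and 35.6 ± 5.80 CPM (SD, n = 3 each).

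Cd44, the hyaluronan receptor shed by Mmp14 and Adam10, was at 140, 133 and 115 CPM in sham and 164, 271 and 190 CPM in pSNL (log2 fold change 0.69 ± 0.18, adjusted p = 0.142 in edgeR). The adhesion protein L1cam was at 409 ± 46.5 and 539 ± 72.8 CPM (SD, n = 3 each; adjusted p = 0.152). Both were higher in each injured library. Without pSNL replicate 1, where 1.92% of all genes passed, Cd44 and Lgi3 passed in edgeR (adjusted p = 0.0440 and 0.0147, where the alternatives spanned 0.0066 to 0.336 and 0.00098 to 0.258). So did the interleukin-6 receptor Il6r (adjusted p = 0.0328, against 0.290 with that library and up to 0.663 over the alternatives), whose groups overlapped. The proteoglycan brevican (Bcan), a substrate of Adamts4, was at 173, 171 and 295 CPM in sham and 120, 142 and 112 CPM in pSNL (-0.77 ± 0.23, adjusted p = 0.199). Without sham replicate 3, the library with central glia markers, the log2 fold change of Bcan was -0.47 (adjusted p = 0.0993, where the alternatives spanned 0.0042 to 0.435). Neurocan (Ncan) was at 16.8 ± 3.34 and 27.2 ± 8.79 CPM with overlap (adjusted p = 0.216). App and the neurotrophin receptor Ngfr overlapped between the groups as well, at 947 ± 36.6 and 972 ± 26.5 CPM and at 1243 ± 150 and 1113 ± 94.4 CPM.

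**Figure D5:**
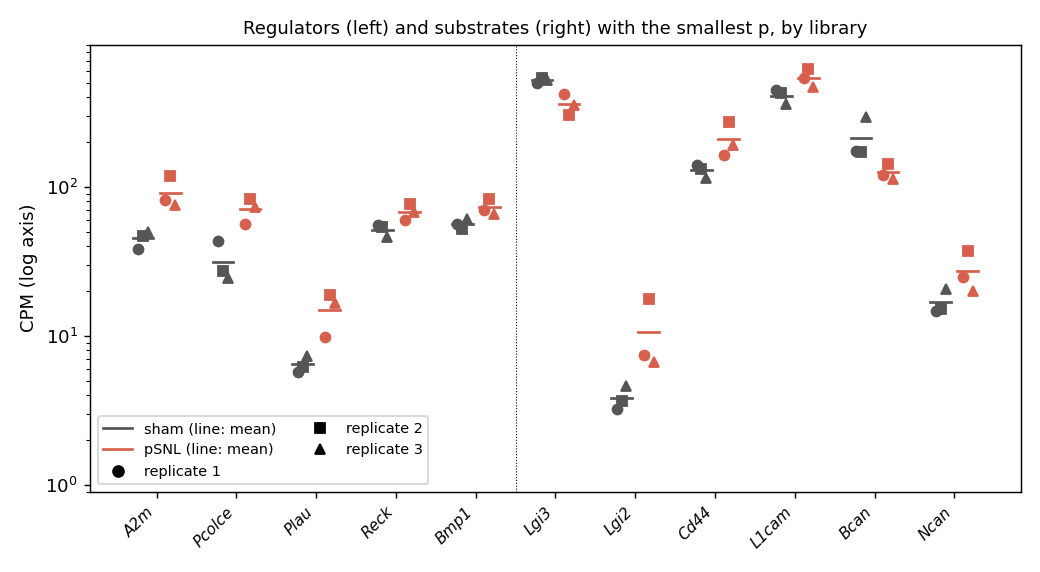
CPM of the 5 regulators (left of the dotted line) and the 6 substrates or binding partners (right) with the smallest p in each library, on a log axis, with sham in grey, pSNL in red, 1 symbol shape for each replicate number and the group mean as a line. A2m, Pcolce and Plau are higher and Lgi3 and Bcan lower in every pSNL library than in every sham library, while Ncan overlaps.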

How the data were processed

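RNA of 3 sham and 3 pSNL ganglion libraries was sequenced. For each library the authors estimated the expected count of every gene from the reads and deposited it with the gene's length and FPKM, per the file headers. CASAVA 1.4 and Bowtie2 appear in the submitters' processing notes, whereas the quantifier, build, annotation and strand setting were not given in the sources used here. Genes that a file does not list were set to 0. Identifiers were named through the RefSeq table of GRCr8 (14227 by gene ID, 16 by transcript accession, 103 kept by ID), which also gave the upstream sequences; protein sequences were not used here, so families follow symbols.

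Expected counts were rounded, and pSNL was compared with sham in edgeR 4.0.16 (R 4.3.3; TMM factors of 0.9903 to 1.015, default filter on low counts, robust quasi-likelihood fit), with Benjamini-Hochberg adjustment over 11091 genes. Standard errors were derived from the test statistic. DESeq2 1.42.0, other scalings, no filter, a replicate block and each library left out served as alternatives. The fit was tested on simulated counts. Depth was 4310643 to 4416121 counts per library. Counting intervals are exact 95% intervals on summed counts and leave out differences among libraries. Reads carry no molecular identifiers.

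Values in every library are given for tested members with the 16 smallest p, all TIMPs and the 2 most abundant members per length of each family, and for up to 6 genes of the other lists; other values were chosen after they were seen, among them those of Mmp3, Mmp9, Mmp12, Adam23 and Adamts4 and of some partners and regulators. The members and lists were chosen with earlier results of these data known. A regulator is counted in its list but not reported here by name.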

Additional observations from a re-analysis of the deposited data

How the results depend on the processing

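The count of members past the adjusted threshold was 1 in edgeR, also without a scaling factor and with DESeq2's size factors, 7 with DESeq2 and 5 without a filter on low counts, and 0 to 7 with 1 library left out. Over all genes the count was 51 in edgeR, 332 with DESeq2, 89 without a filter and 5 to 217 with 1 library left out. Regulators had 0 in edgeR, 3 with DESeq2, 1 without a filter (A2m) and 0 to 4 with 1 library left out; substrates had 0, 3 with DESeq2 and 0 to 3 with 1 library left out. The cause of these shifts was not tested. The members' median log2 fold change kept its sign under all of these alternatives, at 0.34 to 0.57. With the replicate number as a block (replicate block) 4 members passed (Timp1, Mmp13, Mmp19 and Adamts2), 1 regulator (A2m) and 111 genes in all. Same-numbered libraries correlated by only 0.029, 0.016 and 0.126 in their deviations from the group means, and not every library correlated best with its own number, so the numbers were not taken as pairs. Of the 36 tested members 6 changed the sign of their fold change in at least 1 fit, none of them past the threshold in any (Adam11, Adam15, Adamts4, Mmp14, Mmp24 and Timp2). Genes of a few counts, such as Mmp3, Mmp9 and Mmp12, are limited by depth.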
